A study of Homo sapiens with 6 samples.

Results

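The cytosolic ribosomal protein genes encode the protein components of the small and large ribosomal subunits outside the mitochondria. They were taken here as every GENCODE v44 protein-coding gene on chromosomes 1 to 22 and X whose whole symbol is RPL or RPS with a number, with or without an A or X after it, together with RPSA, RPLP0, RPLP1 and RPLP2. This gave 77 genes of 19962, of which 31 encode small-subunit and 46 large-subunit proteins. Kinases of the RPS6K family, paralogues with an L suffix and readthrough genes are not in the set.

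Open chromatin was mapped with ATAC-seq, in which a transposase cuts exposed DNA, in MCF10A, an established line of non-tumorigenic human mammary epithelial cells. All cells were first kept for 30 min in phosphate-free HHBSS, a buffered salt solution, and then received for another 30 min either more of that solution (control), 50 μM of the Zn2+ chelator TPA, or 30 μM ZnCl2. There were 2 libraries per condition and 6 in all, named by condition and replicate number, which the study calls biological replicates in one place and technical in another, so the spread between them may be technical. The comparisons ask how chromatin over these promoters stood when labile Zn2+ was removed or added, and both treatments share the same control libraries.

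The deposited lists give the open regions that HMMRATAC, a hidden Markov model caller, found in each library, with a position and a whole-number score of at least 30. The lists held between 18887 (ZnCl2 2) and 44641 (control 2) regions on the assembled chromosomes, and they hold no read counts, so sequencing depth is unknown. A start site, the 5′ end of the canonical transcript, was called covered when a region spanned it. The score percentile of a gene is the share of regions in the same list with a lower score than the region over its start site, so that 0 marks the lowest score listed. Of 10 mammary epithelial marker genes, only 3 were covered in all 6 libraries, KRT18 and ITGB4 among them. TP63 was covered in none, and the rest were covered in 3 to 5 libraries. The hormone receptor genes ESR1 and PGR, PTPRC, CD3E and the endothelial markers were covered in none, COL1A1 was covered in control 2 alone and CD14 in all 6.

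Ribosomal protein genes are among the most strongly transcribed genes of growing cells, and their products are needed in matched amounts. Their transcripts usually begin with a cytosine followed by a run of pyrimidines, the 5′ terminal oligopyrimidine (TOP) motif, through which mTOR signaling controls their translation. Their promoters are short, mostly without a TATA box, and often hold sites for ETS family factors, YY1, Sp and KLF factors.

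The bases around the start sites of 8 members are shown because these genes carry the results that follow. RPL12, RPL23, RPL32 and RPS27 were covered in both TPA libraries and in no ZnCl2 library, RPS19 and RPS3A kept high scores in every library, RPS29 had the greatest positive difference between ZnCl2 and control, and RPS12 differed most between the treatments. Each sequence runs 5′ to 3′ on the strand of the gene in hg38, with 20 bases before the start site and 10 from it on, and capitals mark the pyrimidine run that begins at the start site.
RPL12 (chr9:127451397-127451426, minus strand): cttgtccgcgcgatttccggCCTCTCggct
RPL23 (chr17:38853712-38853741, minus strand): acttccttttttcttttttcCggcgttcaa
RPL32 (chr3:12841556-12841585, minus strand): cccaggggttacgacccatcagcccttgcg
RPS27 (chr1:153990742-153990771, plus strand): gcaggatttccgctttcgctCCTTTCCggc
RPS19 (chr19:41860235-41860264, plus strand): gcccgggaaaccccgtcgttCCCTTTCCCC
RPS3A (chr4:151099608-151099637, plus strand): tcgcgcgactcccacttccgCCCTTTTggc
RPS29 (chr14:49586371-49586400, minus strand): gcgcatgcgtgggccagcttCTTCCTTTTa
RPS12 (chr6:132814549-132814578, plus strand): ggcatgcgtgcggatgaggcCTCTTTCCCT
Of these, 6 open with a cytosine and at least 4 more pyrimidines. RPL32 begins with an adenine at the annotated start, and RPL23 has a single cytosine there.

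Over all members, 58 of 77 (75.3%) had such a TOP-type start, against 4.59% of all protein-coding genes. Counted from the start of the gene record, which is often farther upstream, 20 members (26.0%) had one, against 3.20% of all genes. A cytosine with 4 more pyrimidines lay within a few bases of the annotated start in 66 members (85.7%) and in 21.8% of all genes. The promoter, taken as 250 bases before and 50 from the start site on, held the ETS core CGGAAG on either strand in 61.0% of members and 25.4% of all genes. The YY1 core ATGGCG was in 32.5% of members and 14.6% of all genes, and the NRF1 core GCATGCG in 10.4% and 5.08%. The Sp and KLF box GGGCGG was about as frequent in members (59.7%) as in all genes (61.3%), as was CCAAT (33.8% and 36.0%). TATAAA, searched on the gene strand from 35 to 19 bases before the start site, was in 3 members (3.90%) and in 3.84% of all genes. Matches of different motifs were counted separately where they overlapped, and a match is a description of the letters and not of a bound factor. The member promoters had a median GC content of 59.3% against 63.7% over all genes, with an observed-to-expected CpG ratio of 0.920 against 0.776.

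**Figure D1:**
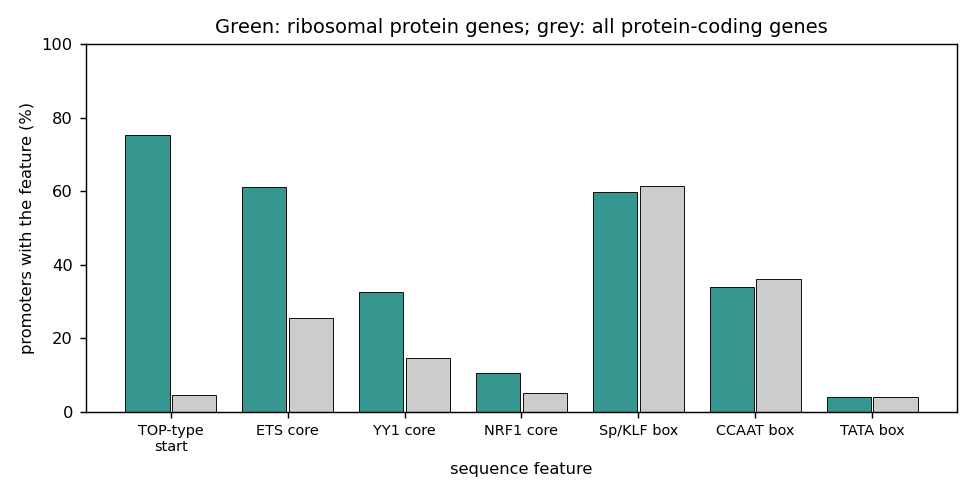
Percentage of promoters that hold each sequence feature (y axis) for the 77 ribosomal protein genes (green bars) and all 19962 protein-coding genes (grey bars). The TOP-type start is in 75.3% of members and 4.59% of all genes, while the Sp/KLF, CCAAT and TATA bars are of similar height.

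The 150 bases upstream of 3 of these genes are shown for how differently they are built, with matches to the ETS, YY1, Sp and KLF, NRF1 and CCAAT letters in capitals. RPS27 and RPL32 had 1 match each, in both cases the ETS core, and RPS3A had 4.
RPS27 (chr1:153990612-153990761, plus strand): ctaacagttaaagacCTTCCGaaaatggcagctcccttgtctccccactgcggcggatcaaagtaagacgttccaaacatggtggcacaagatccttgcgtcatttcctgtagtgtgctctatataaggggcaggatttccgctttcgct
RPL32 (chr3:12841566-12841715, minus strand): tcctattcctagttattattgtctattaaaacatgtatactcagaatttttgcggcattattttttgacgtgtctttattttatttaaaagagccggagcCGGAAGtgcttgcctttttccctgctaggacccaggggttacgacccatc
RPS3A (chr4:151099478-151099627, plus strand): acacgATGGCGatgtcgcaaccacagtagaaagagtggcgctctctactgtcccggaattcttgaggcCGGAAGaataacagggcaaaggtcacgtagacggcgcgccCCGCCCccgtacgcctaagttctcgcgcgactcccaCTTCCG
Of the 58 members with a TOP-type start, 41 (70.7%) were covered in every library, against 9 of the 19 without one (47.4%). Of the 26 members with a CCAAT box, 22 (84.6%) were covered in every library, against 28 of the 51 without one (54.9%). Other features went the other way or differed little. The share was 59.6% with the ETS core and 73.3% without it, and 63.0% with the Sp and KLF box and 67.7% without. For the YY1 core it was 68.0% with and 63.5% without. These shares are descriptions over the members only, and no test was made of them.

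Every member was covered in at least 1 library, against 63.3% of all protein-coding genes. Control 1 covered 64 of the 77 start sites and control 2 covered 77, TPA 1 and TPA 2 covered 75 and 77, and ZnCl2 1 and ZnCl2 2 covered 72 and 52. Coverage was thus complete or nearly so with TPA and lowest in the shorter control and ZnCl2 lists. Among the 12635 genes open in any library, the corresponding shares were 80.0% and 96.4%, 86.4% and 89.6%, and 94.4% and 73.4% (83.1% and 100%, 97.4% and 100%, and 93.5% and 67.5% of members), so that the members' share was above that of other genes in the control and TPA libraries and below it in both ZnCl2 libraries. The 78 mitochondrial ribosomal protein genes, each open in at least 1 library, showed the same pattern. Their shares were 92.3% and 98.7% in the control, 97.4% in both TPA libraries, and 93.6% and 66.7% with ZnCl2. TPA covered 76.0 ± 1.41 members and ZnCl2 62.0 ± 14.1 (SD, n = 2 each), a difference with an exact two-sided permutation p of 0.33, which is the smallest that 2 libraries against 2 can give. With the 18887 highest-scoring regions of each list, coverage was 55 and 61 members in the control, 58 and 61 with TPA, and 55 and 52 with ZnCl2. As shares these were 71.4% and 79.2%, 75.3% and 79.2%, and 71.4% and 67.5%, against 71.6% and 75.7%, 65.3% and 66.0%, and 76.6% and 73.4% of the genes open in any library. The members' share was thus the higher one in both TPA libraries and the lower one in both ZnCl2 libraries at equal list length too.

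**Figure D2:**
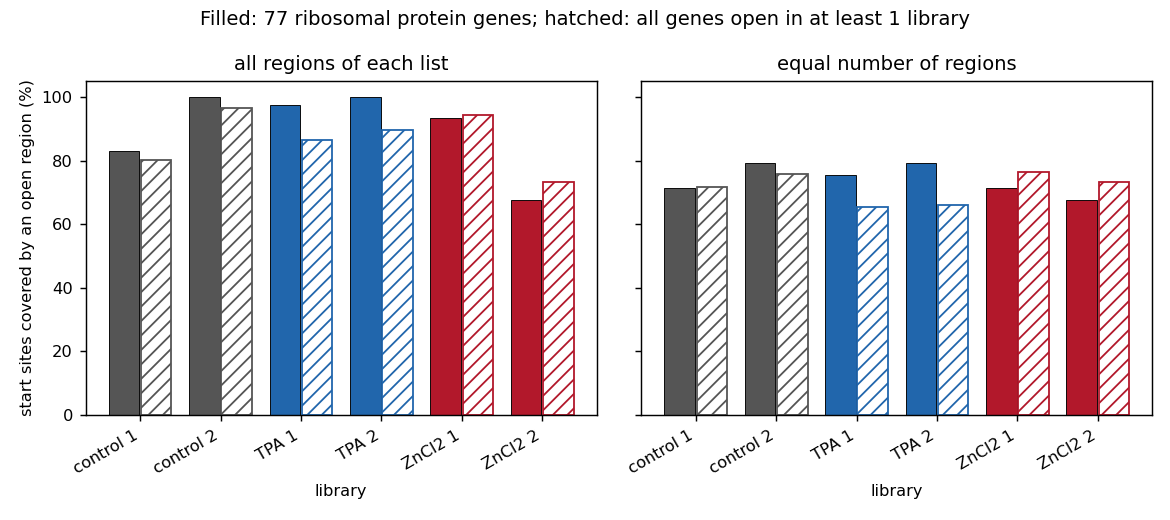
Percentage of start sites covered by an open region (y axis) in each library, for the 77 ribosomal protein genes (filled bars) and the 12635 genes open in at least 1 library (hatched bars). With whole lists the members range from 67.5% in ZnCl2 2 to 100% in control 2 and TPA 2, and with 18887 regions per list they range from 67.5% to 79.2%.

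The 50 members covered in all 6 libraries make up 64.9% of the set, against 68.1% of the genes open in any library. Of the 27 others, 12 lacked a region in ZnCl2 2 alone: RPL3, RPL4, RPL7A, RPL10, RPL11, RPL21, RPL29, RPL35A, RPL39, RPS15, RPS16 and RPS18. Another 7, among them RPL17, RPL31, RPL38, RPL41, RPS10 and RPS28, lacked one in control 1 and ZnCl2 2, the 2 shortest lists. RPL36A and RPS7 lacked one in control 1 alone, and RPL6 in TPA 1 and ZnCl2 2. RPL19, which lies near the exit of the nascent peptide tunnel, was covered in control 2 and TPA 2 only. In none of the 45 cases did a region end within 500 bp of the start site, and the nearest lay 578 to 97729 bp away (median 9460 bp).

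RPL12, RPL23, RPL32 and RPS27 were covered in both TPA libraries and in no ZnCl2 library. They are 4 of 77 members, where 1.15% of the genes open in any library had this pattern, and no member had the reverse pattern, which 0.973% of those genes had. As TPA 2 covered all 77 members, none could have had the reverse pattern, so its absence is no result. RPS27, a zinc-binding small-subunit protein, had score percentiles of 48.6 and 72.9 with TPA and 36.0 in control 2, and no region in control 1. RPL32, a large-subunit protein, had 43.4 and 62.4 with TPA and 0 and 36.0 in the control. Both were thus listed at a higher percentile with TPA than in either control library. RPL12, part of the stalk base, had 13.1 and 34.3 with TPA and 34.3 in control 2, and RPL23 had 13.1 and 23.3 with TPA and 0 in control 2, all below the middle of their lists. With equal numbers of regions, RPS27 was still covered in both TPA libraries and no other, RPL32 in TPA 2 alone, and RPL12 and RPL23 in none. RPL32 was also the only member covered in both control libraries and in no ZnCl2 library, a pattern of 0.182% of genes. No member was covered in both libraries of one of TPA and control and in none of the other, where 0.388% of genes were so with TPA and 0.886% with control, and none was covered with ZnCl2 in both libraries and in no control, as 0.0712% of genes were. Because control 2 and TPA 2 each covered all 77 members, these absences were fixed in advance. They cannot be weighed against the shares of all genes.

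**Figure D3:**
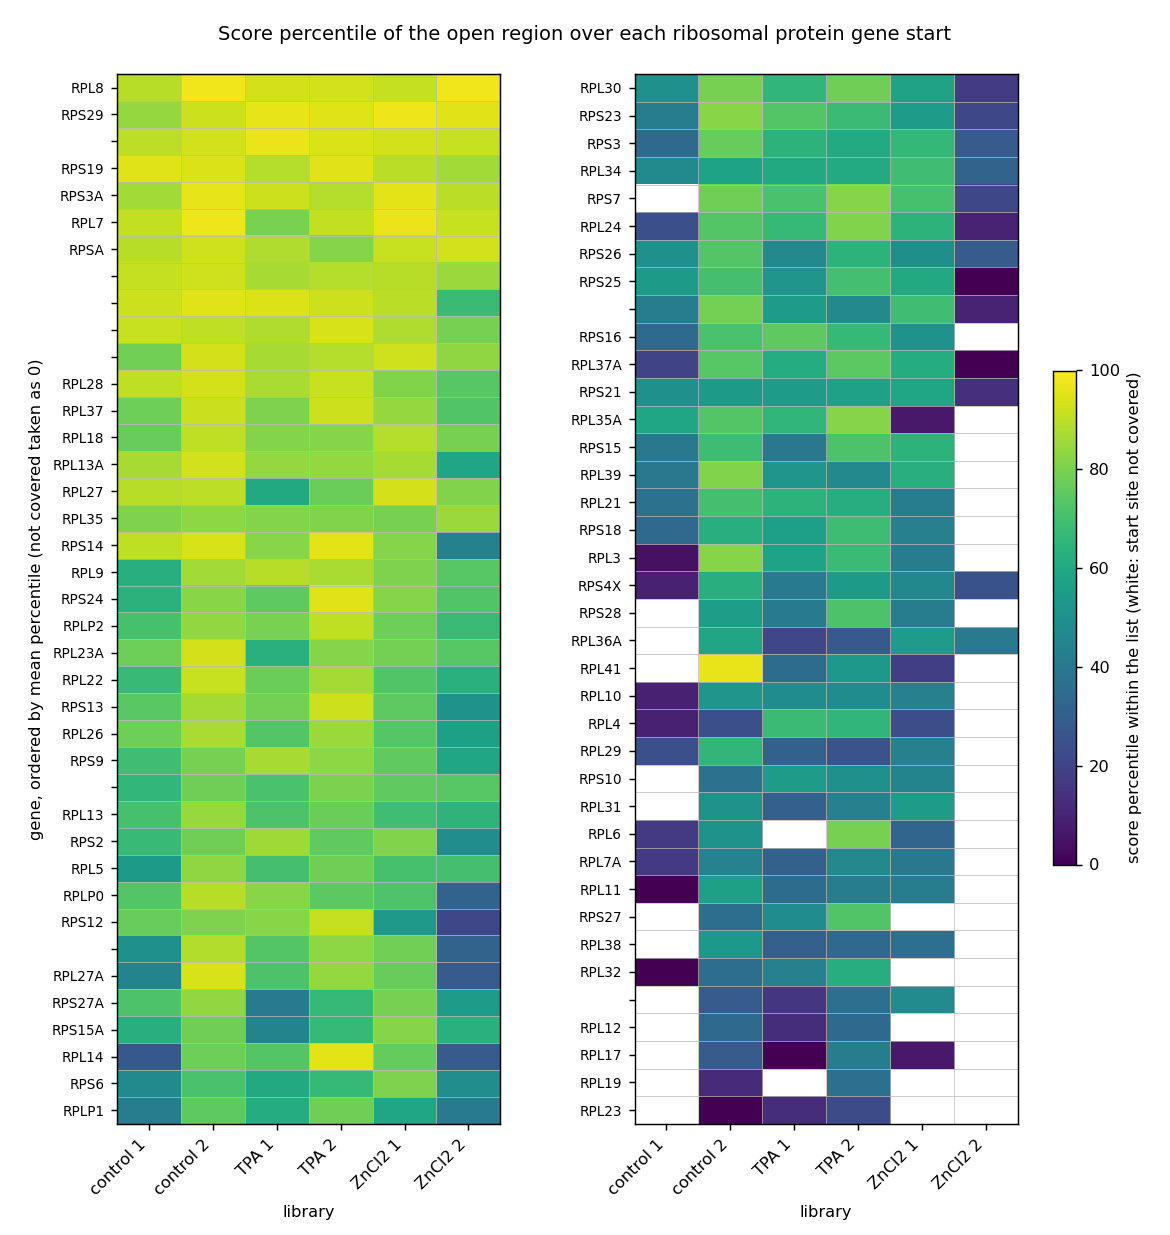
Score percentile of the region over the start site (color, 0 to 100) for each of the 77 genes (rows, ordered by their mean with uncovered sites taken as 0) in the 6 libraries (columns), white where the start site was not covered. Genes described in the text are labelled, RPL8 and RPS29 lead the order, and white cells gather in the ZnCl2 2 and control 1 columns of the lower-ranked genes.

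Where covered, members did not stand above other genes. Their median score percentile was 62.6 and 79.0 in the control libraries, 67.0 and 77.4 with TPA and 70.9 and 58.8 with ZnCl2. Over all covered genes it was 69.2 and 80.1, 70.3 and 74.7, and 77.4 and 65.1, so the members' median was the lower one in 5 of 6 libraries and the higher one in TPA 2. Mitochondrial ribosomal protein genes, a list of 78, had medians of 53.5 and 77.2, 66.5 and 76.5, and 67.5 and 62.8. Translation factor and other genes known for TOP transcripts, of which 18 of 19 were open in any library, had 73.3 and 87.9, 87.4 and 87.7, and 79.9 and 65.1.

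Individual members spanned nearly the whole scale. RPL8, which lies near the peptidyl transferase center, had the highest mean over the 6 libraries, 93.8, with percentiles from 89.3 to 98.0. RPS29, a zinc-binding protein of the small-subunit head, followed at 93.5 (84.1 to 97.5), and the ranges of both overlap. Within 500 bp of the RPS29 start site, 39.7% of 31-base pieces occur elsewhere in the genome, the highest share of any member, and the part of this in its score was not tested. The lowest means among the 50 members covered throughout were those of RPS4X at 40.0 (9.08 to 63.0), RPS21 at 48.3 (13.9 to 58.7) and RPL37A at 48.9 (0 to 74.7). RPS4X is the X-linked copy of a small-subunit protein, and RPL37A binds zinc.

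For TPA against control, no member passed the limma test on score percentile at an adjusted p of 0.05, against 42 of 8610 genes (0.488%), all 42 of them lower with TPA. At an unadjusted p under 0.05 there were 3 members, RPS29, RPL7 and RPL27, against 5.95% of all genes, and the smallest adjusted p of a member was 0.292 (RPS29, limma). The median difference, TPA minus control, was 1.95 points over the 50 members and -0.41 over all genes tested, with 27 members above 0 and 23 below. Both TPA libraries lay above both controls for 7 members (14%; 10.3% of all genes), among them RPL9, RPL34, RPS9, RPS12, RPS21 and RPS29. They lay below both for 6 (12%; 23.8% of all genes), among them RPL7, RPL13A, RPL27, RPS27A and RPSA.

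RPL14, a large-subunit protein, had the greatest positive difference from control, 31.8 points (SE 18.7, limma adjusted p = 0.999), from 27.7 and 77.8 in the control to 73.3 and 95.85 with TPA. RPL24, RPL37A and RPL9 followed with 25.2, 21.2 and 14.0 points. In RPL14, RPL24 and RPL37A these differences rest on control 1, where their percentiles were 27.7, 24.2 and 20.4, and the groups overlap. RPL9 was separate, at 89.3 and 87.4 with TPA against 62.6 and 86.1. Its region also covered the start site of LIAS in every library.

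On the negative side, RPS27A, made as a fusion with ubiquitin, had 41.5 and 67.0 with TPA against 72.0 and 83.7 in the control, a difference of -23.6 points (SE 17.7, limma adjusted p = 1.00). RPL27 had 60.7 and 77.4 against 89.3 and 90.05, a difference of -20.7 points (SE 10.4, limma adjusted p = 0.835). RPS15A had -14.4 points and RPL23A, at the mouth of the exit tunnel, -13.2 points, both with overlapping groups. RPL7 differed by less, -8.85 points (SE 3.71, limma adjusted p = 0.522), at 80.05 and 90.7 against 90.8 and 97.6, so that its groups only just did not overlap. The RPL7 and RPS27A regions also covered the start sites of RDH10 and CLHC1 in every library. With an equal number of regions per list, RPL27 passed the limma test as lower with TPA, as 5.96% of all genes did, and RPS29 as higher, as 0.191% did.

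For ZnCl2 against control, again no member passed the limma test on score percentile, where 2 of 8610 genes did (0.0232%), both lower. There were 5 members at an unadjusted p under 0.05, among them RPL28, RPS12, RPS14 and RPS29, against 3.12% of all genes, and the smallest adjusted p was 0.379 (RPS29, limma). The median difference, ZnCl2 minus control, was -7.50 points over the 50 members and -2.84 over all genes tested, and 14 members (28%) were above 0, against 30.8% of all genes. Without ZnCl2 2 the members' median was 1.43 points, with the 12 members uncovered in that library alone now included. Without control 2 it was 1.18 points. The sign of the members' median thus depended on which libraries and genes entered the fit. The medians over all genes under these 2 settings are not given here. Both ZnCl2 libraries lay below both controls for 12 members (24%; 13.3% of all genes), 6 of the small subunit (among them RPS12, RPS14, RPS19 and RPS26) and 6 of the large (among them RPL13, RPL13A, RPL26, RPL28 and RPLP0). RPS29 alone was above both (2%; 2.54% of all genes). Mitochondrial ribosomal protein genes were alike, with a median difference of -5.92 points over 49 genes. Both ZnCl2 libraries lay below both controls for 12 of these (24.5%) and above both for 0.

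RPS12, a small-subunit protein, had percentiles of 76.6 and 80.6 in the control and 53.8 and 21.6 with ZnCl2, a difference of -40.9 points (SE 17.4, limma adjusted p = 1.00). RPS25 had 54.7 and 70.6 against 60.8 and 0, which gave -32.2 points and overlapping groups. RPS14, a platform protein whose loss is known from the 5q- syndrome, had 90.4 and 93.9 against 81.7 and 43.9, or -29.4 points (SE 10.9, limma adjusted p = 0.675). RPLP0, the protein that anchors the stalk, had 73.3 and 89.3 against 72.4 and 32.01, or -29.1 points. In RPLP0, as in RPS12 and RPS14, the groups did not overlap, and in all 4 the lower of the ZnCl2 values was that of ZnCl2 2.

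The positive differences with ZnCl2 were small. RPS29 had 97.5 and 95.5 with ZnCl2 against 84.1 and 92.4 in the control, 8.24 points higher (SE 2.68, limma adjusted p = 0.379). RPS6, the protein phosphorylated by S6 kinase, had 80.6 and 48.9 against 47.9 and 71.3, or 5.21 points, and RPS24 and RPL9 had 4.01 and 3.003 points, all 3 with overlapping groups.

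Set directly against each other, TPA and ZnCl2 again gave no member past the limma threshold on score percentile, where 82 of 8610 genes passed (0.952%), 37 higher (0.43%) and 45 lower (0.523%) with TPA. At an unadjusted p under 0.05 there were 4 members, among them RPS12 and RPS14, higher with TPA, and RPL7, lower, against 10.2% of all genes. The median difference, TPA minus ZnCl2, was 11.6 points over the 50 members and 1.73 over all genes tested, and 37 of 50 members (74%) were higher with TPA against 59.3% of all genes. Both TPA libraries lay above both ZnCl2 libraries for 17 members (34%; 21.5% of all genes) and below both for 3, RPL7, RPL27 and RPSA (6%; 17.8%). With equal numbers of regions these counts were 10 and 10 of 44 members (22.7% each), against 17.6% and 39.8% of all genes. With uncovered sites set to 0 they were 31 of 77 (40.3%; 21.4% of genes open in any library) and 4 of 77 (5.19%; 14.1%).

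Without ZnCl2 1, 3 members, RPS12 and RPS14 among them, passed the limma test as lower with ZnCl2 than with control and than with TPA, 6% of the 50, against 3.83% and 7.74% of all genes. The median difference was smaller without ZnCl2 2, but the gene set then changed too, as 12 members uncovered in that library alone entered the fit. Without ZnCl2 2 the median difference was 2.39 points over 62 members and -3.27 over all genes. With equal numbers of regions it was 2.97 over 44 members and -3.52 over all genes. On the log2 score scale in place of the percentile, 8 members were higher (RPL14, RPL24, RPL30, RPL37A, RPS12, RPS13, RPS14 and RPS23) and 2 lower (RPL7 and RPL27) with TPA by the limma test, 16% and 4% of the 50 against 7.06% and 13.9% of all genes.

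RPS12 had the greatest difference between the treatments, with 82.1 and 91.1 under TPA and 53.8 and 21.6 under ZnCl2, 48.9 points apart (SE 17.4, limma adjusted p = 0.165). RPL37A had 62.1 and 74.7 against 61.9 and 0, RPL24 67.0 and 81.0 against 64.8 and 9.41, and RPL30 65.9 and 78.2 against 57.5 and 17.9, for differences of 37.5, 36.9 and 34.4 points. In these 3 genes ZnCl2 1 lay just below the lower TPA library and ZnCl2 2 far below it. In the other direction RPL27 had 60.7 and 77.4 against 93.4 and 81.1, or -18.2 points (SE 10.4, limma adjusted p = 0.571), followed by RPS15A at -16.5, RPS27A at -13.1 and RPL7 at -8.80 points. Mitochondrial ribosomal protein genes had a median difference of 6.78 points over 49 genes, with 18 (36.7%) above and 3 (6.12%) below in both libraries, shares close to those of the cytosolic set, and the TOP translation genes had 12.2 points over 16 genes.

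**Figure D4:**
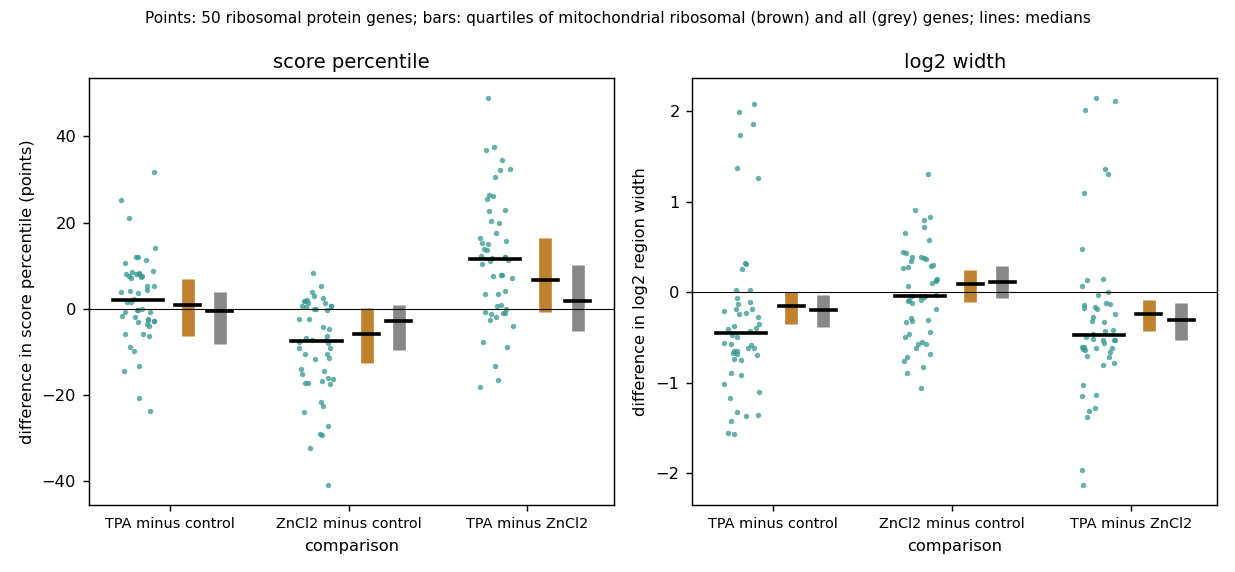
Difference in score percentile (left, points) and in log2 region width (right) for each comparison (x axis). Points are the 50 ribosomal protein genes covered in all 6 libraries, brown and grey bars span the quartiles of mitochondrial ribosomal protein genes and of all genes, and black lines are medians, which for TPA minus ZnCl2 lie at 11.6, 6.78 and 1.73 points.

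By role in the ribosome, no group of members had a gene past the limma test. The stalk proteins RPLP0, RPLP1 and RPLP2, which recruit translation factors, were covered in all 6 libraries. In each of them both TPA libraries lay above both ZnCl2 libraries, as in 34% of the 50 members and 21.5% of all genes. The differences between the group means were 26.2, 20.2 and 12.2 points. The lower TPA and higher ZnCl2 values were closer, at 74.7 and 72.4 in RPLP0, 62.1 and 58.7 in RPLP1, and 80.05 and 78.02 in RPLP2. In each gene the lower ZnCl2 value was that of ZnCl2 2. RPL5 and RPL11, which carry 5S rRNA and bind MDM2 when ribosome assembly fails, differed in level. RPL5 had 54.7 and 83.3 in the control, 70.3 and 78.2 with TPA and 70.9 and 70.6 with ZnCl2, while RPL11 had 0 and 56.9, 35.4 and 42.0, and 41.9 with no region in ZnCl2 2.

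Of the 7 zinc-binding proteins, 5 were covered in all libraries (RPS26, RPS27A, RPS29, RPL37 and RPL37A), and none passed the limma test in any comparison. Their differences for TPA minus control ran from -23.6 points in RPS27A to 21.2 in RPL37A. RPS26 had 50.1 and 73.4 in the control, 46.9 and 64.8 with TPA and 49.9 and 28.7 with ZnCl2. RPL37 had 77.8 and 92.2, 80.8 and 92.3, and 84.3 and 72.9, and so overlapped throughout. RPL36A, not covered in control 1, had 59.0 in control 2, 21.2 and 27.9 with TPA and 55.05 and 41.2 with ZnCl2, and so entered no fit.

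Exit tunnel proteins were covered throughout in 4 of 8 cases (RPL22, RPL23A, RPL26 and RPL35). RPL35 was the steadiest of them, between 79.6 and 85.1 in every library, while RPL39 lacked a region in ZnCl2 2 and RPL17 and RPL31 in control 1 and ZnCl2 2. RPS2 and RPS3, of the mRNA entry site, and RPS3A, of the platform, were covered throughout, RPS3A at 86.3 to 96.3 and RPS3 at 28.7 to 76.6. Of the genes best known from Diamond-Blackfan anemia, RPS19 ranged from 86.3 to 95.5, RPS24 from 64.4 to 95.3, and RPL35A was covered in 5 libraries, at 58.9 and 73.4 in the control, 65.9 and 81.7 with TPA and 6.72 in ZnCl2 1. RPSA, which is related to the laminin receptor, had 89.3 and 92.8 in the control, 87.9 and 81.7 with TPA and 91.7 and 93.3 with ZnCl2. Its TPA libraries thus lay below the 4 others.

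The regions over member start sites differed in width between libraries of the same condition. In control 1 and control 2 the median width over members was 1430 and 4010 bp, in the TPA libraries it was 1690 and 1810 bp, and in the ZnCl2 libraries 2005 and 3410 bp, against 1690 and 2760, 1830 and 1890, and 2150 and 2600 bp over all covered genes. In control 2 and ZnCl2 2 the members' regions were 1.45 and 1.31 times as wide as those of all genes at the median, and in the other 4 libraries 0.846 to 0.958 times as wide. In control 2 the regions reached a median of 2211 bp downstream of the start site, against 1479 bp over all genes, and in control 1 they reached 592 bp against 875 bp.

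**Figure D5:**
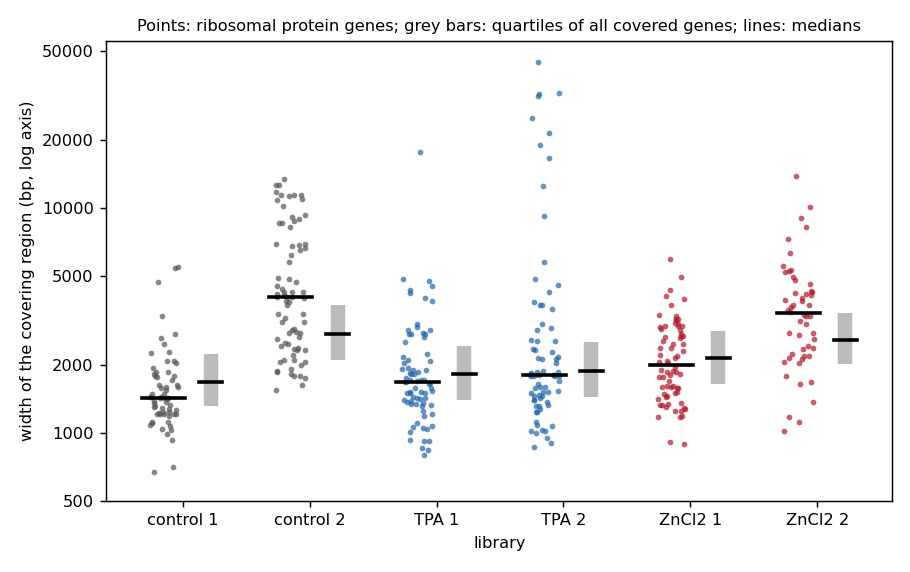
Width of the region over each start site (y axis, bp, log axis) in the 6 libraries, with points for ribosomal protein genes, grey bars for the quartiles of all covered genes and black lines for medians. Control 2 and ZnCl2 2 stand above the other libraries at the median, and TPA 2 holds points up to 44720 bp.

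Regions wider than 10 kb covered 11 members in control 2 (14.3%, against 1.38% of all covered genes), 9 in TPA 2 (11.7% against 5.81%), 2 in ZnCl2 2 (3.85% against 0.637%), 1 in TPA 1, and none in control 1 or ZnCl2 1. RPS12 had the widest, 44720 bp in TPA 2, and widths of 3060 to 11280 bp in the other libraries. RPL14 had 32690 bp, RPL4 32160 bp, RPL6 31430 bp and RPL24 25230 bp in TPA 2, with at most 4490 bp in any other library. RPL31 was the only member over 10 kb in both TPA libraries, at 17810 and 16740 bp, and had 8580 bp in control 2, 3700 bp in ZnCl2 1 and no region in control 1 and ZnCl2 2.

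By the limma test on log2 width, no member passed in any comparison, with 1, 0 and 1 member at an unadjusted p under 0.05 for TPA minus control (RPLP0), ZnCl2 minus control and TPA minus ZnCl2 (RPL23A), against 1.49%, 0.825% and 4.01% of all genes. Adjusted calls over all genes were 8 (0.0929%), 0 (0%) and 9 (0.105%), all wider with TPA. The median difference over the 50 members was -0.45, -0.04 and -0.48 on the log2 scale, against -0.20, 0.11 and -0.31 over all genes. As percentiles of width within a list, the members' medians were 0.450 points for TPA minus control and 1.78 for TPA minus ZnCl2, of the opposite sign. On the log2 scale the median for TPA minus control was -1.08 without control 1 and 0.25 without control 2. That for ZnCl2 minus control was -0.73 and 0.72. The medians over all genes for width percentiles and without these libraries are not given here, so these shifts cannot be called particular to the members. Regions were narrower in both TPA libraries than in both controls for 7 members (14%; 16.7% of all genes) and wider for none (1.94% of all genes). With ZnCl2 they were wider than in both controls for 3 (6%; 10.9%) and narrower for 1 (2%; 2.52%). Regions were narrower in both TPA libraries than in both ZnCl2 libraries for 23 members (46%), fewer than the 55.1% of all genes, and wider for 3, RPL24, RPS4X and RPS12 (6%; 2.57% of all genes).

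The greatest positive width differences for TPA minus control were those of RPL14, RPS4X and RPL24, at 2.09, 2.00 and 1.86 on the log2 scale (limma adjusted p = 0.996 each), all through TPA 2. RPL35, RPS6 and RPS12 were also far wider in TPA 2, at 21580, 19180 and 44720 bp, than in TPA 1, at 1510, 1900 and 4820 bp. A fit without TPA 1 rests on TPA 2 alone, the library that set these widths apart, and is no separate support. RPL14 had 1040 bp in TPA 1 and 1030 and 1830 bp in the control. The greatest negative differences were those of RPL13A, RPS9 and RPSA, at -1.57, -1.56 and -1.42, through control 2, where their regions measured 11430, 13500 and 12710 bp against 990, 1420 and 1110 bp in control 1. For ZnCl2 minus control, RPL18, RPS27A and RPL23A had 1.30, 0.91 and 0.83, and RPL27A and RPL37A had -1.06 and -0.82. For TPA minus ZnCl2, RPS9 and RPSA had -2.13 and -1.38, and RPL24, RPS4X and RPS12 had 2.15, 2.12 and 2.02. By mean width over the 6 libraries, RPS12 (11915 bp), RPL14 and RPL24 were the widest and RPS24 (1265 bp), RPS23 and RPL34 the narrowest.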

How the data were processed

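Open regions were analysed for 2 control, 2 TPA and 2 ZnCl2 ATAC-seq libraries. The authors removed adapters (BBDuk), aligned the pairs against hg38 (HISAT2 2.1.0) and ran HMMRATAC on each library, whose version and kind of score are not given in the sources used here. The deposited score is a whole number per region. The lists precede the merging of replicates and the removal of blacklisted regions. Without read counts, depth is unknown, and the score was used only as a percentile within its own list.

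Regions on the assembled chromosomes were joined to GENCODE v44 start sites (hg38, the build of the files). Percentiles and log2 widths of the 8610 genes covered in all 6 libraries were fitted with limma 3.58.1 (R 4.3.3), without a replicate block, with a trended prior and Benjamini-Hochberg adjustment over all 8610. The 3 groups shared an estimate of the spread. Means are given with SD and differences with the SE of the fit. The fit was tested on simulated data, where it recovered few planted shifts, so the absence of a call says little.

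Members, lists and tests were chosen with earlier results of these data known. Named genes were every member not covered in some library, the 4 greatest differences in percentile and 3 in width per direction and comparison, the 3 highest, lowest, widest and narrowest, and genes set by role. RPL28, and members given for groups that do not overlap or for calls under another setting, fall outside this rule and were named after their values were seen, as were the members whose sequences are printed. Sequences were read from hg38 for all members, and those on chromosome 8 are counted but not printed. The alternatives tried were other scales, list lengths, start sites, overlaps, contigs, filters, a GC correction, a replicate block, fits to 2 groups and leaving out each library. Some members and markers that the rules name are not reported here by name, but stay in all counts and fits.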

Additional observations from a re-analysis of the deposited data

Results flagged for a closer look

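RPS12 was the only one of the 50 ribosomal protein genes covered in all 6 libraries whose score percentile lay above both controls in both TPA libraries and below both controls in both ZnCl2 libraries, a pattern that 186 of 8610 genes (2.16%) had in 1 direction or the other, so that 1 of 50 members (2%) is at the level of all genes. Its control libraries were at 76.6 and 80.6, its TPA libraries at 82.1 and 91.1, and its ZnCl2 libraries at 53.8 and 21.6. The 48.9 points between the treatments did not pass the limma test of that difference (adjusted p = 0.165). They passed it with an equal number of regions per list, on the log2 score, and with a crossed replicate block that was added after seeing the data. The shares of all genes that passed under these settings are given in the next section. RPS12 was singled out by these same percentiles, so the passes are no separate support for it. Its region in TPA 2, of 44720 bp, also covers the start site of SLC18B1. No ribosomal protein gene had opposite responses in region width, against 1.68% of all genes. Groups of 2 libraries are too small to single out a library within a group.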

How the results depend on the processing

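The results above were recomputed under other settings, one at a time. Percentages in parentheses are shares of all genes tested under the same setting. The limma test called 0 members in all 12 directions, and some settings gave calls. After a GC correction, 1 gene, RPL7, was lower with TPA than with control (0.964%) and than with ZnCl2 (1.25%). With an equal number of regions per list, 1 gene was higher (RPS29; 0.191%) and 1 lower (RPL27; 5.96%) with TPA than with control, and 1 higher (RPS12; 1.72%) and 2 lower (RPL27 and RPL7; 10.2%) with TPA than with ZnCl2. On the log2 score, 1 gene was higher (RPL14; 1.54%) and 1 lower (RPL27; 5.89%) for TPA minus control, 1 higher (RPS29; 0.0465%) for ZnCl2 minus control, and 8 higher (7.06%) and 2 lower (13.9%) for TPA minus ZnCl2. Leaving out each library gave 0 to 3 genes lower for ZnCl2 minus control and 0 to 3 higher for TPA minus ZnCl2, the 3 without ZnCl2 1 (3.83% and 7.74%). For width it gave 0 to 6 higher and 0 to 1 lower for TPA minus control and 0 to 6 higher and 0 to 3 lower for TPA minus ZnCl2, all without TPA 1 (4.38%, 0.0802%, 4.56% and 0.206%). A fit that leaves a condition with 1 library assumes that it varies like the others. Its calls are no separate support for genes that stood out in that library.

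With the replicate number as a block, 0 members were called in every comparison. Deviations from the group means correlated at 0.170 between control and TPA, -0.459 between control and ZnCl2 and -0.134 between TPA and ZnCl2 over 8610 genes, so the numbers were not taken to pair the libraries. With crossed replicate numbers as the block, added after seeing the data, 3 genes were higher with TPA than with ZnCl2 (3.03%).

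Counts of members whose groups do not overlap moved more, and with 1 library left out the share of all genes moved with them. For TPA minus control, the higher count was 2 (11.6%) after the GC correction, 16 (23.8%) on the log2 score, 12 (10.5%) with uncovered sites at 0, 4 of 29 (11.8%) in the upper 50% of each list and 7 to 34 without each library (34 without control 2; 53.4%). The lower count was 12 of 44 (35.5%) with equal numbers and 6 to 31 without each library (31 of 52 without control 1; 66.2%). For ZnCl2 minus control, the higher count was 3 (2.90%), 4 of 44 (21.5%), 8 (26.4%) and 0 of 48 (2.73%) under the GC correction, equal numbers, the log2 score and the gene record start, and 1 to 16 without each library (16 without control 2; 32.8%). The lower count was 12 to 43 (43 of 52 without control 1; 63.1%). For TPA minus ZnCl2, the higher count was 10 of 44 (17.6%) with equal numbers, 31 of 77 (21.4%) with uncovered sites at 0, 9 of 29 (22.3%) in the upper 50% and 17 to 38 without each library (38 without ZnCl2 1; 65.5%). The lower count was 5 (19.1%), 10 of 44 (39.8%) and 9 (33.7%) under the GC correction, equal numbers and the log2 score, and 3 to 18 without each library (18 of 62 without ZnCl2 2; 52.6%).

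As a percentile within the list, the median width difference was 0.450 points for TPA minus control and 1.78 for TPA minus ZnCl2. On the log2 scale and without each library, it ran from -1.08 to 0.25 for TPA minus control. For ZnCl2 minus control it ran from -0.73 to 0.72. The extremes came without control 1 and control 2. The medians of all genes for these widths are not given here. In the upper 50% of each list, 40 start sites were covered in control 1 and 32 in ZnCl2 2. The start of the gene record is often upstream of the canonical start. Counted from it, 20 members had a TOP-type start (3.20%), 15 the YY1 core (11.9%), 5 the NRF1 core (4.60%) and 0 the TATA box (2.84%). For these results the cause was not tested. Of 4002 values of named genes under other settings, 3715 kept their direction.

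The lists hold no read counts, so sequencing depth is unknown and a start site without a region cannot be called closed. List length, which differs within the control and within the ZnCl2 pair, cannot be told apart from openness in these files. With 2 libraries per condition, a p that misses the threshold does not show that values were alike.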
